A study of Mus musculus with 6 samples.

Results

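The genes described here encode subunits of the mitochondrial respiratory chain and a few neighbouring enzymes and import proteins, measured in mouse mammary tumour cell lines with and without Akt1. They were picked by deposited gene symbol: families Nduf, Sdh, Uqcr, Cox and Atp5 for complexes I to V, Timm and Tomm for protein import, Coq for coenzyme Q, and the families of electron transfer flavoprotein, isocitrate and malate dehydrogenases and acyl-CoA dehydrogenases. The rule found 35 probe sets for 27 genes, among 5604 named probe sets and 45037 probe sets in all. No electron transfer flavoprotein, malate dehydrogenase or acyl-CoA dehydrogenase symbol was among the names.

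The knockout group, akt1(-/-), held lines 72, 75 and 116, and the wild-type group, akt1(+/+), held lines 31, 101 and 102, with 1 array per line. All 6 lines came from mammary tumours driven by an MMTV-ErbB2 transgene, whose viral promoter acts mainly in the mammary gland, were plated so as to remove fibroblasts, and were kept for 25 passages. Every line was grown with 10% serum, 4 μg/ml insulin, 10 ng/ml EGF, 1 μg/ml hydrocortisone and 10 ng/ml cholera toxin in both groups, and 50 ng of total RNA per line was amplified before labelling. Neither the making of the Akt1 allele nor whether each line came from its own animal is given in the sources used here, so any p-value measures the spread between these lines.

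Respiratory chain complexes pass electrons from NADH and succinate to oxygen and pump protons across the inner mitochondrial membrane, and ATP synthase, complex V, uses that proton gradient to make ATP. Nearly all their subunits are encoded in the nucleus, made in the cytosol and brought in through the translocases of the outer and inner membrane. Transcription of these nuclear genes is known to be driven by factors such as NRF1, GABP, ERRα and YY1, with coactivators of the PGC-1 family. Akt1 is a serine/threonine kinase downstream of phosphoinositide 3-kinase, known for its control of growth, survival and metabolism.

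A limit on everything that follows is that the authors gave a symbol only to probe sets that differed between the genotypes at a deposited p under 0.05. The differences below therefore describe probe sets already chosen for differing, and the counts of limma calls given with them are descriptions that support nothing about the group. Of 5869 probe sets under that limit 265 carry no symbol, so members that differ can be missing. Just inside the limit lay a Tomm70a probe set with a deposited p of 0.0491 and a Coq9 probe set at 0.0464, with differences of 0.53 and -0.31 log2 units. Just outside it lay a probe set without a symbol, at 0.05002 and a difference of 0.30. Probe sets of these genes that carry no symbol were not analysed here as members, so a gene's named probe sets need not be all that the array holds for it.

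Promoters are shown because NRF1 is a known regulator of respiratory chain genes and its letters were the motif found in the most members. The exact letters GCGCATGC were sought on both strands from 250 bases before to 50 after the gene start. RefSeq promoters on GRCm38.p6 were matched for 23 of the 27 genes, 16 lower and 7 higher. The NRF1 letters lay in 6 of the 16, namely Sdhb, Atp5g2, Ndufa8, Ndufa11, Timm13 and Uqcrc1, and in 0 of the 7. That is 26.1% of the 23 members, against 3.05% of 27025 genes with a promoter in the table and 5.71% of the 3240 named genes with one. Among the named genes, 7.15% of those lower and 4.13% of those higher in the knockout lines held them, and with only 7 higher members a difference between lower and higher members was not tested. Stretches of 60 bases before the gene start follow, with the motif or its reverse complement GCATGCGC in capitals. Where the 2 overlap, as in Atp5g2 and Ndufa11, the capitals cover both.
Sdhb, chr4:140961191-140961250, plus strand: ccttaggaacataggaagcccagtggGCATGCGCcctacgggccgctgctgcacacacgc
Atp5g2, chr15:102671055-102671114, minus strand: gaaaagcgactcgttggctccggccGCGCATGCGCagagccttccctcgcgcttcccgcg
Ndufa8, chr2:36049339-36049398, minus strand: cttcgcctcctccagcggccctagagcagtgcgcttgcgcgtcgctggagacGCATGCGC
Ndufa11, chr17:56717677-56717736, plus strand: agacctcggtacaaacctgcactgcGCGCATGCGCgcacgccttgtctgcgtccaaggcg
Timm13, chr10:80901128-80901187, minus strand: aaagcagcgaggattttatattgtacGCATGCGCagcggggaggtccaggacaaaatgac

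In these stretches the NRF1 letters began 54 bases before the start of Sdhb, 60 before that of Ndufa11, 42 before that of Atp5g2, 8 before that of Ndufa8 and 192 before that of Timm13. In Uqcrc1 they lay after the start. The GABP letters CCGGAAG were found in 4 of 23 members, Cox8a, Sdhb, Tomm22 and Tomm70a, or 17.4%, against 9.93% of all genes and 19.5% of the named genes. These letters lay in 2 of the 16 lower and 2 of the 7 higher members. Among the named genes, 21.0% of those lower and 17.8% of those higher in the knockout lines held them. The Tomm22 and Tomm70a promoters are shown because these were the higher members that held them, with the letters or their reverse complement in capitals. In Tomm22 both strands overlap in 1 run.
Tomm22, chr15:79670796-79670855, plus strand: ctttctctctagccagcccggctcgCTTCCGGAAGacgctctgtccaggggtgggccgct
Tomm70a, chr16:57121607-57121666, plus strand: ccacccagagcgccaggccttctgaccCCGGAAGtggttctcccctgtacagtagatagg

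The ERRα letters AAGGTCA were in Coq10a and Ndufb2, 2 of the 16 lower members, 8.70% of the members against 5.38% of all genes. The YY1 letters AAGATGGCG were in Coq9, a lower member, and Ndufs4, a higher one, 8.70% against 1.64%. Of the named genes 3.77% held the ERRα letters, 3.43% of those lower and 4.13% of those higher in the knockout lines. For the YY1 letters these shares were 3.89%, 4.79% and 2.91%. A match of letters is a description of these windows and does not show that a factor binds there.

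Members of the respiratory chain families went in both directions. In the knockout lines 20 of the 35 probe sets were lower and 15 higher, with a median difference, knockout minus wild type, of -0.32 log2 units. Over all 5604 named probe sets 53.7% were lower and the median was -0.27, and over all 45037 probe sets 46.1% were lower and the median was 0.03. Counted once per gene, by the probe set of highest mean, 18 genes were lower and 9 higher. Counted in the same way, 1692 of the 3240 named genes with a promoter in the table were lower and 1548 higher. In all 35 probe sets every knockout line lay on 1 side of every wild-type line, as it did in 21.9% of all probe sets, and 30 had an unadjusted limma p under 0.05, as did 15.4% of all. At a Benjamini-Hochberg adjusted p under 0.05 limma called 0 of the 35, and 48 of all 45037 probe sets (0.107%). The equal-variance test adjusted in the same way called 0 members and 3 of all probe sets. With array weights 1 member (Sdhb) and 239 of all probe sets were called. Limma without line 75 called 1 member (Ndufa4) and 327 of all probe sets. Because the same contrast gave the members their names, none of these counts says anything about the group.

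Differences of 2-fold or more were few. Ndufa4, Ndufa12 and Atp5d were at least 2-fold lower, where 2.14% of all probe sets were so at an unadjusted p under 0.05, and Atp5a1 was at least 2-fold higher, where 0.668% were. The remaining 31 probe sets lay between 1.13-fold and 1.90-fold. Limma's standard errors ran from 0.11 to 0.37 log2 units. Of the 35 probe sets, 10 were dim, meaning that their mean over the 6 lines lay below the median of all probe sets, 5.46 log2 units, and with these left out 13 were lower and 12 higher.

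**Figure D1:**
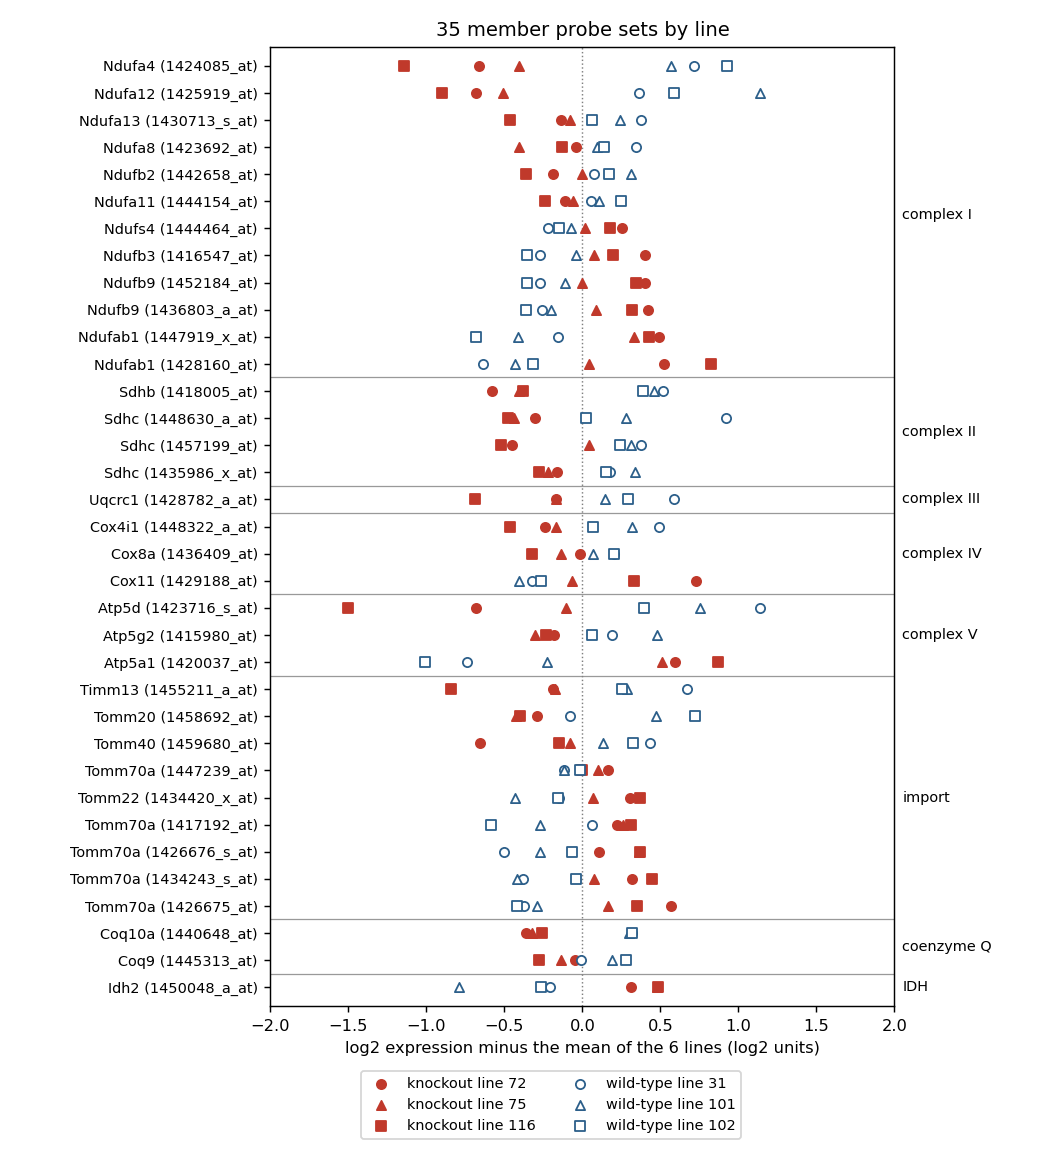
Log2 expression of each of the 35 member probe sets in each line, minus that probe set's mean over the 6 lines. Filled red symbols are the knockout lines 72, 75 and 116 and open blue symbols the wild-type lines 31, 101 and 102, grouped by complex; red and blue do not overlap in any row, where every probe set was named for differing.

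Complex I, which oxidises NADH and reduces ubiquinone, had members in both directions, with 6 genes lower and 4 higher. By probe set the split was 6 and 6, since Ndufab1 and Ndufb9 have 2 each, with a median of 0.01 log2 units. Ndufa4, an accessory subunit long counted with complex I and now assigned to cytochrome c oxidase, had 7.41, 7.66 and 6.92 log2 units in knockout lines 72, 75 and 116, against 8.78, 8.63 and 8.99 in wild-type lines 31, 101 and 102. Line 116 was the lowest, and 0.97 log2 units separated the nearest lines of the groups. The means were 7.33 ± 0.37 in the knockout and 8.80 ± 0.18 in the wild-type lines (SD, n = 3 each), a difference of -1.47 ± 0.22 log2 units (SE) or 2.77-fold. Ndufa12, an accessory subunit of the peripheral arm, had 3.21, 3.39 and 2.9997 in the knockout lines, against 4.26, 5.04 and 4.48 in the wild-type lines. Its difference was -1.39 ± 0.23 (SE). The probe set was dim, so that its level in the knockout lines lay in the low range of the arrays.

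The other lower complex I members differed by less. Ndufa13, an accessory subunit also known as GRIM-19, had 12.41, 12.46 and 12.08 in the knockout lines, against 12.92, 12.79 and 12.60 in the wild-type lines. The groups were 0.14 log2 units apart at their nearest lines. Ndufa8, a subunit on the intermembrane space side, Ndufb2 of the membrane arm and Ndufa11, also of the membrane arm, differed by -0.39 ± 0.15, -0.37 ± 0.15 and -0.27 ± 0.13 (SE). In each of these 3 the groups lay 0.08 to 0.13 log2 units apart at their nearest lines, less than the SE of the difference.

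Among the higher complex I members were Ndufab1 and Ndufb9, each with 2 probe sets that went the same way. Ndufab1 encodes the mitochondrial acyl carrier protein, which is also needed for mitochondrial fatty acid synthesis. Its brighter probe set, 1447919_x_at, had 11.76, 11.60 and 11.70 in the knockout lines, against 11.12, 10.86 and 10.59 in the wild-type lines, a difference of 0.83 ± 0.17 (SE). The other, 1428160_at, had 9.70, 9.23 and 10.01 in the knockout lines, against 8.55, 8.75 and 8.86 in the wild-type lines, a difference of 0.93 ± 0.22. Knockout line 75 was the lowest of its group on both. Ndufb9 encodes a membrane arm subunit of the LYR protein family, which is known to bind the acyl carrier protein. Its brighter probe set had 13.72, 13.39 and 13.62 in the knockout lines, against 13.04, 13.10 and 12.94 in the wild-type lines, a difference of 0.55 ± 0.14. The other had 10.98, 10.58 and 10.92 in the knockout lines, against 10.30, 10.47 and 10.22 in the wild-type lines, a difference of 0.50 ± 0.16 (SE). Here too knockout line 75 was the lowest of its group on both probe sets. Ndufb3, another membrane arm subunit, differed by 0.44 ± 0.15, with 10.46, 10.13 and 10.26 in the knockout lines, against 9.79, 10.02 and 9.71 in the wild-type lines. Ndufs4, an accessory subunit whose loss causes Leigh-like disease in mice, was dim and differed by 0.30 ± 0.13.

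**Figure D2:**
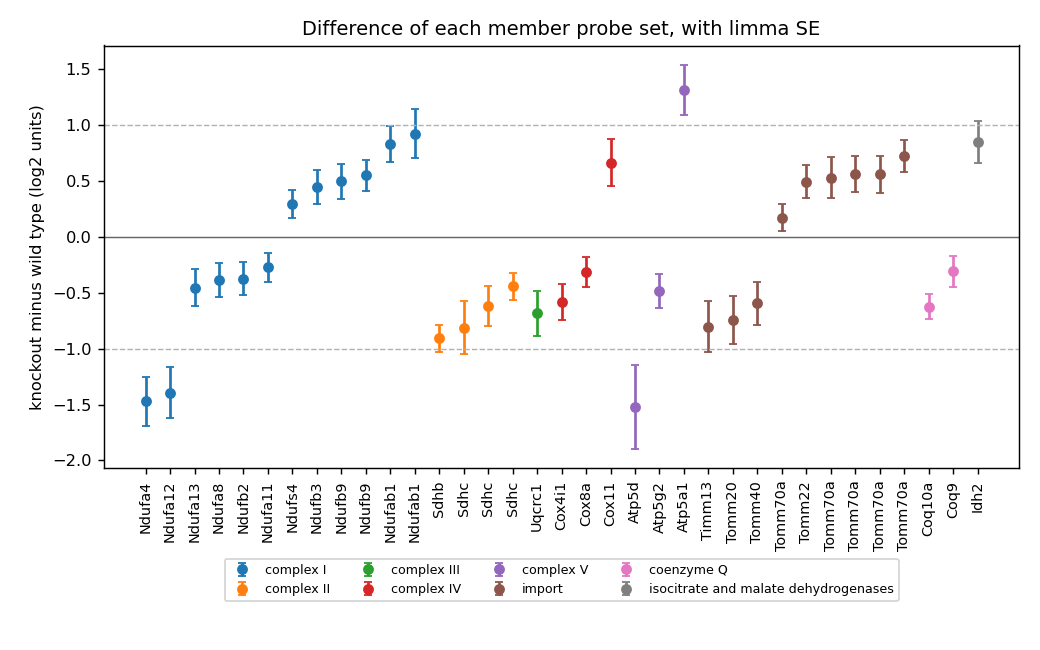
Difference of each member probe set, knockout minus wild type in log2 units, with limma's standard error as bars, coloured by role; dashed lines mark 2-fold. All 4 complex II values, of the 2 genes Sdhb and Sdhc, lie below 0, as do the 1 of complex III and the 2 of coenzyme Q. Complexes I, IV and V and the import genes have values on both sides.

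Complex II, succinate dehydrogenase, which links the citric acid cycle to the chain, was lower on all 4 of its named probe sets, with a median of -0.72 log2 units. Sdhb, the iron-sulphur subunit, had 9.82, 9.99 and 10.02 in the knockout lines, against 10.92, 10.86 and 10.79 in the wild-type lines. Its groups were tight and 0.77 log2 units apart at their nearest lines. The means were 9.94 ± 0.11 and 10.85 ± 0.06 (SD, n = 3 each, knockout and wild type), a difference of -0.91 ± 0.12 (SE) or 1.88-fold. Sdhc encodes a membrane anchor that helps to bind ubiquinone. Its probe set 1435986_x_at had 8.46, 8.40 and 8.34 in the knockout lines, against 8.80, 8.96 and 8.77 in the wild-type lines, a difference of -0.44 ± 0.12. On 1448630_a_at the values were 7.999, 7.86 and 7.83 in the knockout lines, against 9.22, 8.58 and 8.32 in the wild-type lines. Wild-type line 31 stood above the others there, and the difference was -0.81 with all lines and -0.56 without that line. The dim probe set 1457199_at had 3.23, 3.72 and 3.15 in the knockout lines, against 4.05, 3.99 and 3.92 in the wild-type lines, a difference of -0.62 ± 0.18.

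Complex III, which passes electrons from ubiquinol to cytochrome c, had 1 named member. Uqcrc1, a core protein, had 10.91, 10.90 and 10.39 in the knockout lines, against 11.66, 11.22 and 11.37 in the wild-type lines, a difference of -0.68 ± 0.20 (SE). Line 116 was the lowest.

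Of complex IV, cytochrome c oxidase, 2 structural subunits with a Cox symbol were lower and an assembly factor was higher. Ndufa4, now assigned to this complex but counted above with complex I by its symbol, was lower too. Cox4i1, a nuclear-encoded regulatory subunit, had 11.91, 11.98 and 11.69 in the knockout lines, against 12.64, 12.47 and 12.22 in the wild-type lines, a difference of -0.59 ± 0.16 (SE). Cox8a, another nuclear-encoded subunit, was dim and had 4.83, 4.71 and 4.53 in the knockout lines, against 5.05, 4.92 and 5.05 in the wild-type lines, a difference of -0.32 ± 0.13. The nearest lines of the groups were 0.08 log2 units apart there. Cox11, which delivers copper to the enzyme during assembly, had 9.79, 8.99 and 9.39 in the knockout lines, against 8.73, 8.65 and 8.79 in the wild-type lines. The knockout lines were spread widely, with line 72 the highest and line 75 only 0.20 log2 units above the highest wild-type line, and the difference was 0.67 ± 0.21.

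Complex V held the members with the largest differences in either direction. Atp5d, the delta subunit in the stalk of the F1 part, had 9.19, 9.76 and 8.36 in the knockout lines, against 11.001, 10.62 and 10.26 in the wild-type lines. Its means were 9.10 ± 0.70 and 10.63 ± 0.37 (SD, n = 3 each, knockout and wild type), a difference of -1.52 ± 0.37 (SE) or 2.87-fold, with the highest SE among the members. Line 116 was far below the other knockout lines. Atp5a1, the alpha subunit of the catalytic head, went the other way, with 7.35, 7.26 and 7.63 in the knockout lines, against 6.02, 6.53 and 5.75 in the wild-type lines. The difference was 1.31 ± 0.23 or 2.49-fold. Atp5g2, which encodes a form of subunit c in the membrane ring, had 8.71, 8.59 and 8.66 in the knockout lines, against 9.08, 9.38 and 8.96 in the wild-type lines, a difference of -0.48 ± 0.15.

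Import genes included the member with the most named probe sets. Tomm70a, an outer membrane receptor for carrier proteins, was higher in the knockout lines on all 5 of its probe sets, by 0.17 to 0.72 log2 units. On 1426676_s_at, the brightest, the values were 9.49, 9.74 and 9.75 in the knockout lines, against 8.88, 9.11 and 9.32 in the wild-type lines. On 1426675_at they were 8.65, 8.26 and 8.44 in the knockout lines, against 7.71, 7.80 and 7.67 in the wild-type lines, the largest of the 5 differences at 0.72 ± 0.15 (SE). Line 75 was the lowest knockout line on the second of these, and line 72 on the first. On 1417192_at the values were 6.998, 7.03 and 7.09 in the knockout lines, against 6.84, 6.50 and 6.19 in the wild-type lines, a difference of 0.53 ± 0.18. The dim 1434243_s_at had 5.21, 4.97 and 5.34 in the knockout lines, against 4.51, 4.47 and 4.85 in the wild-type lines, a difference of 0.56 ± 0.17. The dim 1447239_at had 4.32, 4.26 and 4.15 in the knockout lines, against 4.04, 4.04 and 4.14 in the wild-type lines, groups only 0.01 log2 units apart at their nearest lines. These probe sets share a gene and the 6 RNA samples, so they are repeated readings and no replicates. Tomm22, the central receptor of the outer membrane translocase, had 9.87, 9.63 and 9.93 in the knockout lines, against 9.42, 9.13 and 9.41 in the wild-type lines, a difference of 0.50 ± 0.15.

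The remaining import genes were lower. Timm13, a small chaperone of the intermembrane space, had 9.37, 9.39 and 8.72 in the knockout lines, against 10.23, 9.85 and 9.82 in the wild-type lines, a difference of -0.80 ± 0.23 (SE). As for Atp5d and Uqcrc1, line 116 was the lowest. Tomm20, a receptor for presequences, and Tomm40, the channel of the outer membrane, were both dim and differed by -0.74 ± 0.22 and -0.59 ± 0.19. Tomm20 had 3.78, 3.64 and 3.66 in the knockout lines, against 3.99, 4.54 and 4.79 in the wild-type lines, and Tomm40 had 3.88, 4.46 and 4.38 in the knockout lines, against 4.97, 4.67 and 4.86 in the wild-type lines. Subunits of the same translocase, Tomm20, Tomm22 and Tomm40, thus had differences of both signs on the probe sets that carry a name.

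**Figure D3:**
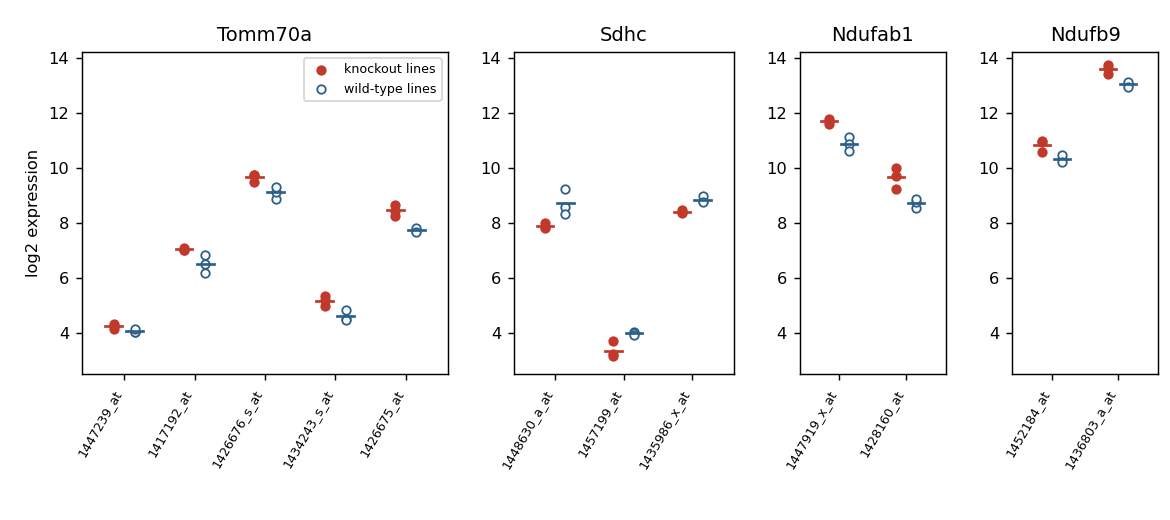
Log2 expression on every named probe set of the 4 members with more than 1, Tomm70a, Sdhc, Ndufab1 and Ndufb9. Points are lines, knockout filled red on the left and wild type open blue on the right of each pair, and bars are group means; within each gene all named probe sets go the same way, and levels of different probe sets are not comparable.

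Coenzyme Q genes were both dim and lower. Coq10a, a protein that binds coenzyme Q, had 3.84, 3.88 and 3.94 in the knockout lines, against 4.51, 4.50 and 4.51 in the wild-type lines. With SDs of 0.05 and 0.01 (knockout and wild type, n = 3 each) it had the smallest deposited p among the members, 3.3e-05, for a difference of only -0.62 ± 0.11 (limma SE). Coq9, needed for coenzyme Q synthesis, had 3.89, 3.81 and 3.66 in the knockout lines, against 3.93, 4.13 and 4.22 in the wild-type lines, a difference of -0.31 ± 0.14. Its groups nearly met, 0.04 log2 units apart. Idh2, the mitochondrial enzyme that makes NADPH from isocitrate, had 8.27, 8.44 and 8.44 in the knockout lines, against 7.75, 7.17 and 7.69 in the wild-type lines. Its difference was 0.85 ± 0.19 or 1.80-fold.

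The order of the lines within a genotype was shared by many members. Line 116 was the lowest of all lines on 14 of the 20 lower probe sets (70%), whereas it was so on 44.1% of the 3011 lower named probe sets. Wild-type line 31 was the highest on 12 of the 20 (60%, against 42.6%). On the 15 higher probe sets, line 75 was the knockout line nearest to the wild type in 11 (73.3%, against 42.8% of 2593) and the farthest in 0. These shares are descriptions, and the members share the 6 RNA samples. Left out in turn, no line turned the sign of any of the 35 differences or moved one by more than 1.46 times.

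Array controls also differed between the genotypes. The gap between the 3′ and 5′ control probe sets of Actb was 3.44 to 3.53 log2 units in the knockout and 2.88 to 3.29 in the wild-type lines, so the groups did not overlap, and that of Gapdh was 3.18 to 3.89 in the knockout and 2.07 to 3.30 in the wild-type lines, with overlap. The bioC spike-in, a hybridization control, averaged 7.81 ± 0.18 in the knockout and 9.08 ± 0.15 in the wild-type lines (SD, n = 3 each). The Actb gap and bioC each separated the genotypes, so their part in the members' differences cannot be told apart from that of genotype. The part of each of these measures was not tested. Akt1 itself was at 4.62, 4.57 and 4.38 in the knockout lines, against 9.71, 10.09 and 10.03 in the wild-type lines, the direction the labels give. Of 7 members the probe set name ends in _s_at or _x_at, which in Affymetrix naming marks probes that may match several transcripts. Among them are the named probe sets of Atp5d, Ndufa13 and Tomm22, whose values may therefore include other transcripts.

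**Figure D4:**
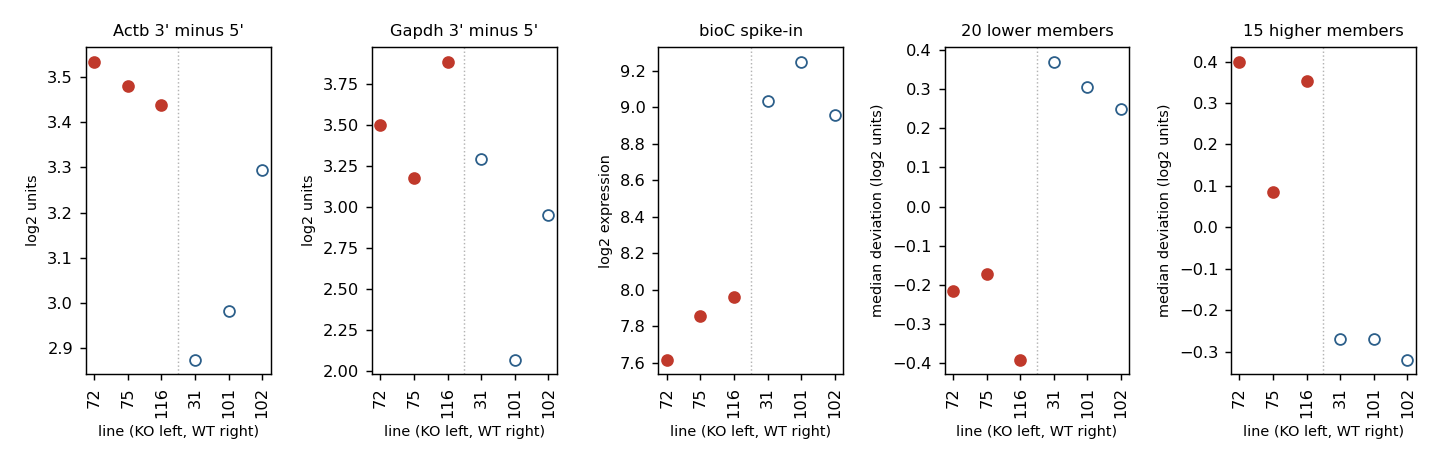
Per line, from left to right, the 3′ minus 5′ gap of the Actb and Gapdh control probe sets, the mean of the bioC spike-in probe sets, and the median deviation of the 20 lower and 15 higher members from their 6-line means, all in log2 units on axes that do not start at 0. Filled red points are knockout lines and open blue points wild-type lines; the bioC spike-in is between 7.62 and 7.96 in the knockout and between 8.95 and 9.25 in the wild-type lines.

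Markers of cell types were read by name, and a name marks a difference between the genotypes, not whether such cells were present. Of all 45037 probe sets 5604 were named, a share counted by probe set, whereas the markers are counted by gene. None of 12 fibroblast markers was named. Adipocyte and brown fat markers had 3 named of 12, with a summed linear signal of 79 to 104 in the knockout and 159 to 176 in the wild-type lines. Lipe and Elovl3 were lower, with differences of -0.62 and -1.32 log2 units, while Prdm16 was higher, at 0.26. Leukocyte markers had 3 of 13 (285 to 352 and 444 to 650, knockout and wild type), with Laptm5 at -0.79, Coro1a at -0.69 and the T cell gene Cd8a at 0.87. Of 10 endothelial markers Plvap was named (243 to 346 and 444 to 1211), at -1.40. The 1 striated muscle marker of 10, Ckm, summed to 8 to 9 and 6 to 7. Of 12 mammary luminal and basal markers 4 were named (6782 to 7826 and 5687 to 6378, knockout and wild type), a sum carried mostly by Krt8. Cdh1, E-cadherin, differed by -0.70, while Tacstd1, now Epcam, differed by 0.80 and the basal keratin gene Krt5 by 0.60. The luminal keratin gene Krt8, singled out after its values were seen, was bright on both its probe sets, at 12.72 ± 0.12 and 12.40 ± 0.12 in the knockout and 12.41 ± 0.09 and 12.19 ± 0.04 in the wild-type lines (SD, n = 3 each). The part of other cells in the differences was not tested, and in such bulk RNA fewer cells of a type cannot be told apart from less RNA per cell.

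Other mitochondrial genes were read from 9 lists with 159 entries. Of these 43 were named, 24 lower and 19 higher. Of all 45037 probe sets 5604 were named, and 53.7% of the named were lower. The lists count genes, which may have several probe sets each, so the share named cannot be set against that of probe sets. By limma 1 passed the adjusted threshold, Immt, which organises the cristae and fell by 1.85 log2 units (limma, adjusted p = 0.0346). Over all 45037 probe sets limma called 48 (0.107%), and whether Immt stays called under the alternative settings was not examined. Since a symbol marks a small deposited p of the same contrast, the counts of named genes at an unadjusted p under 0.05 below are fixed largely by the naming, are to be set beside the 15.4% of all probe sets, and say nothing about a list. In the citric acid cycle and pyruvate dehydrogenase list 7 of 22 genes were named, 5 lower and 2 higher, and 0 passed by limma (5 at an unadjusted p under 0.05). Cs, citrate synthase, averaged 9.33 ± 0.15 in the knockout and 10.01 ± 0.25 in the wild-type lines (SD, n = 3 each), a difference of -0.68, and a second probe set differed by -0.76. Pcx, pyruvate carboxylase, differed by -1.74 ± 0.37 (SE).

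Beta-oxidation genes had 4 named of 22, with Cpt1a, the carnitine transferase that admits fatty acids to mitochondria, at 1.00 and 1.10 on its 2 probe sets, Hibch, an enzyme of valine breakdown, at 0.51 and 0.80 and Echs1, enoyl-CoA hydratase, at -0.75. All 3 named carriers and porins of 11 were lower, among them the ADP/ATP carrier gene Slc25a5 at -0.75 and -0.80 and Vdac2 at -0.62. Of 9 genes around complex III, Ttc19, an assembly factor, differed by -1.03 and -0.33, and 2410003P15Rik, now Uqcc1, by -0.86. Assembly genes had 3 named of 18. Oxa1l, which inserts proteins into the inner membrane, differed by -0.79 ± 0.12 (SE), Sco1, a copper chaperone of complex IV like Cox11, by 0.62 and Fastkd2 by 0.62 and 0.74. Import genes outside the Timm and Tomm families had 4 of 21 named, 3 lower, including Oxa1l, which is on this list too, and Mipep, a peptidase that trims imported proteins, at -0.70. Named genes that passed the adjusted threshold numbered 0 in each of these 5 lists by limma. At an unadjusted p under 0.05 there were 4 of 4 in beta-oxidation, 3 of 3 among carriers and porins, 2 of 2 around complex III, 3 of 3 in assembly and 2 of 4 in import.

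Regulators of respiratory chain genes had 8 named of 19, 4 lower and 4 higher, and 0 passed by limma (7 at an unadjusted p under 0.05). Among factors whose letters were sought above, Nrf1 averaged 3.18 ± 0.11 in the knockout and 4.24 ± 0.22 in the wild-type lines (SD, n = 3 each), on a dim probe set, a difference of -1.06 ± 0.16 (SE), while Yy1, singled out after its values were seen, was higher, at 0.54 ± 0.17. The coactivator gene Ppargc1a averaged 7.26 ± 0.50 in the knockout and 9.15 ± 0.30 in the wild-type lines. A gene for a GABP subunit, Gabpb2, was dim and differed by -1.03 ± 0.17. Another GABP subunit gene, Gabpa, differed by 0.65 ± 0.16 and was singled out after its values were seen. A link between the levels of these regulators and the differences of the members, with or without their letters, was not tested. Of 17 genes for mitochondrial DNA upkeep and transcription 7 were named. The DNA polymerase gene Polg differed by -0.85, the RNA polymerase gene Polrmt by -0.62 and 8430406I07Rik, now Mgme1, an exonuclease, by -0.61, while 4 others were higher, and 0 passed by limma (6 at an unadjusted p under 0.05). In the list of fusion, fission and cristae genes 5 of 20 were named, with Immt as the gene that passed, at 5.36 ± 0.25 in the knockout and 7.20 ± 0.09 in the wild-type lines (SD, n = 3 each), the inner membrane protease Yme1l1 at 0.94 ± 0.16 (SE) and the prohibitin Phb2 at -0.69 ± 0.19.

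**Figure D5:**
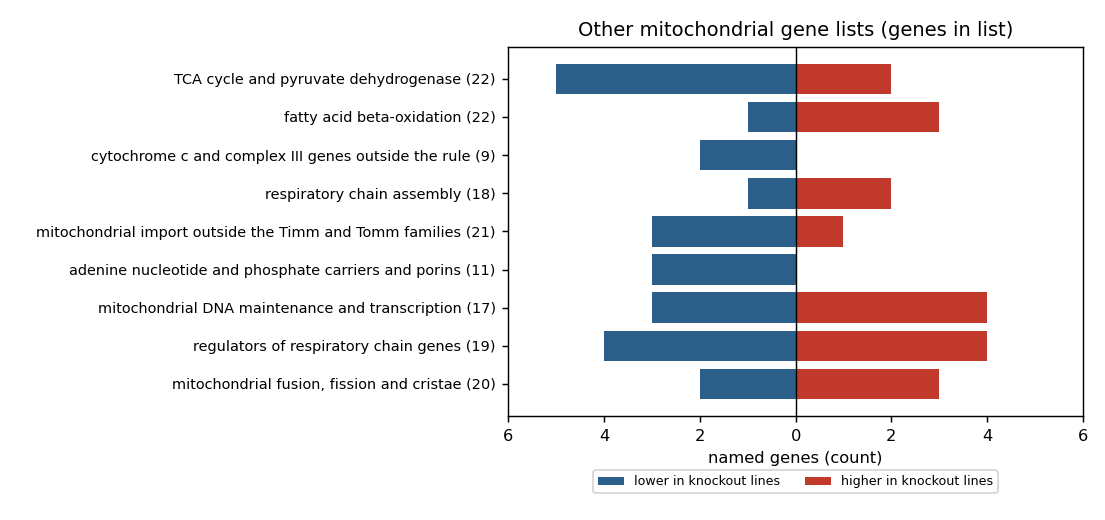
Number of named genes lower (left, blue) and higher (right, red) in the knockout lines for 9 other mitochondrial gene lists, each with the number of genes in the list in brackets; a gene counts by its brightest named probe set. Carriers and porins have 3 lower and 0 higher named genes, and the citric acid cycle list has 5 lower and 2 higher.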

How the data were processed

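Log2 expression values of 45101 probe sets per array were used as the authors deposited them in a workbook sheet; the sources used here give no background correction or normalization step, and values in the series value table differ from the sheet by at most 5e-09. Array medians lay between 5.41 and 5.50. The authors also deposited a p-value, which matches an unadjusted equal-variance test to within 3.2e-09, and, for probe sets with p under 0.05, a log2 difference and a B score, neither used here, and for most of these a symbol. Leaving out 64 controls, 45037 probe sets were fitted with limma 3.58.1 in R 4.3.3 (lmFit, eBayes, knockout minus wild type) with Benjamini-Hochberg adjustment over all of them. The fit was tested on simulated data. The number of arrays, 3 per group, limits precision. Symbols were updated through the RefSeq table of GRCm38.p6 for lists and promoters only.

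Members and lists were chosen with earlier results of these data known. Values per line are given in each role group for up to 3 genes per direction of smallest p. They are also given for the largest differences and for genes with several probe sets. Per list up to 3 genes of smallest p are named. Yy1, Gabpa and Krt8 are named besides these and were singled out after their values were seen. Alternatives were quantile normalization, median centring, a dim filter, an intensity trend, an equal-variance test, array weights, the series value table, 1 probe set per gene, current symbols, and each line left out. A gene of the citric acid cycle list that the naming rule reached is not reported here.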

Additional observations from a re-analysis of the deposited data

How the results depend on the processing

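No paired analysis was possible because the line numbers of the groups differ. No alternative turned the sign of any of the 35 differences (445 values). Of all probe sets, 48 were called, and the count was 6 with dim probe sets left out, 3 by the equal-variance test and 239 with array weights, and 1 to 327 with a line left out, the 327 without line 75; the cause was not tested. Of the members 0 were called, against 1 with array weights, Sdhb (adjusted p = 0.0427), and 0 to 1 with a line left out, Ndufa4 without line 75 (limma). With dim probe sets left out 13 of 25 members were lower, against 20 of 35. The median difference of -0.32 ranged from -0.37 to -0.25 with a line left out, and was -0.39 with 1 probe set per gene and -0.28 with median centring.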

Other observations

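Of the named probe sets 5 have a deposited symbol outside the families but a current RefSeq symbol within them. Cabc1, now Coq8a, an atypical kinase of coenzyme Q synthesis, averaged 5.40 ± 0.18 in the knockout and 4.73 ± 0.26 log2 units in the wild-type lines (SD, n = 3 each), a difference of 0.68 that is opposite to those of Coq9 and Coq10a. A probe set under 1500032O14Rik, now Sdha, the flavoprotein of complex II, averaged 4.94 ± 0.13 in the knockout and 5.30 ± 0.13 in the wild-type lines, a difference of -0.36 with the sign of Sdhb and Sdhc. Fxc1, now Timm10b, a small import chaperone like Timm13, was 0.46 log2 units higher in the knockout lines. A probe set now assigned to Etfbkmt, a methyltransferase of the electron transfer flavoprotein, differed by 0.47 and one now assigned to Tomm20l by 0.31. None of the 5 passed by limma, with adjusted p between 0.165 and 0.358.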
